A study of Mus musculus with 18 samples.

Results

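Inmt encodes indolethylamine N-methyltransferase, a cytosolic enzyme that moves a methyl group from S-adenosylmethionine (SAM) to small molecules. It was chosen by name, from its own counts in all 18 libraries, and is 1 of 39179 genes in the files and 1 of the 15006 tested. Its levels and differences are therefore a description of the values it was chosen on, and no test of it is given.

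The enzyme methylates the nitrogen of tryptamine and other indolamines, which can turn tryptamine into N,N-dimethyltryptamine. In mouse it was also purified, from lung, as a thioether S-methyltransferase that acts on dimethyl selenide and dimethyl sulfide. It uses the same methyl donor as Nnmt, the enzyme that methylates nicotinamide, and the tryptamine it acts on is made from tryptophan, the amino acid that Tdo2, the gene the hairpin of this series was aimed at, breaks down by another route.

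RNA was sequenced from MC38 cells, a colon adenocarcinoma line of C57BL/6 mice, in 18 libraries of 6 groups with 3 libraries each. The groups were APC-deleted cells (APC-KO in the protocol) and APC-intact cells (APC-WT), each untreated and after 24 or 48 h in 1 µM doxycycline, which induces a hairpin against Tdo2. The hairpin is named only in the titles of treated libraries, the protocol speaks of hairpin cells with and without doxycycline, and no treated group lacks it, so effects of the hairpin and of the drug cannot be told apart. Whether the untreated cells carried the hairpin construct is not clear. If they did not, a difference between cells with and without the construct cannot be told apart from treatment either. The libraries are called biological triplicates without mention of separate cultures, and p-values here therefore reflect only how far these samples spread, possibly for technical reasons. Nothing says that either line is more than 1 clone, so a difference between lines cannot be told apart from one between clones.

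Each library held between 71970499 and 111948430 counts assigned to genes. Tdo2 had 6 to 29 counts a library and did not pass the test in any of the 4 comparisons of treated with untreated cells (adjusted p from 0.494 to 0.856, edgeR). Without drug, Apc differed between the APC-deleted and the APC-intact line by −0.57 ± 0.123 (log2, SE, adjusted p = 0.00241, edgeR), and reads that remain cannot show which exons were deleted. Of 12 markers of colon epithelium 2 reached a mean of 1 CPM (counts per 1000000 gene counts), with Cdx2 at 0 and Epcam at 2 counts in all libraries together, whereas 7 of 12 fibroblast markers did, with Col1a1 at 867 CPM and Tcf21 at 0. APC-intact 24 h replicate 1 and APC-deleted 48 h replicate 2 stood apart from their groups, on the fourth and the third principal component. The file names were read as 2 runs: run 1 held both untreated groups and the APC-intact 24 h group, and run 2 held the other 3 groups. Run and treatment therefore cannot be told apart for APC-intact cells at 48 h or for APC-deleted cells at either time. The same holds for run and line at 24 h.

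Inmt (ENSMUSG00000003477) lies on chromosome 6 from 55170626 to 55175043 of mm10, on the minus strand. GENCODE M21 gives it 2 transcripts. The coding one has 3 exons and 792 coding bases. No annotated gene overlaps it, and 0 of its 1570 different 31-base words occur in an annotated transcript of another gene. Only exact words were compared, and the genome outside annotated transcripts was not searched.

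The sequence just upstream of its start is shown because it holds a feature that few mouse promoters share. These are the 197 bases before the GENCODE start site, from RefSeq on GRCm38.p6, chr6:55175044-55175240, minus strand, written 5′ to 3′. Capitals mark 2 back-to-back copies of a 46-base unit and, nearer the start, 2 TATAAA motifs.
Inmt upstream: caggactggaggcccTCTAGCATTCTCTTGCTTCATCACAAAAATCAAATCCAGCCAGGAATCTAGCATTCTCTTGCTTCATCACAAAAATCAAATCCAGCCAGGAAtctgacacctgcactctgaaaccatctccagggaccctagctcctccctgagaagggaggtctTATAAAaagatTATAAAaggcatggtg

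Both copies are identical over all 46 bases and lie from −182 to −137 and from −136 to −91 of the GENCODE start. RefSeq places the start 53 bases further downstream. Of 32851 RefSeq promoter windows of 300 bases, 82 (0.250%) hold a direct repeat at least as long, and the median longest repeat is 8 bases. The TATAAA motifs begin at −27 and −16, and 13.6% of the windows hold that motif on either strand. In the whole 300-base window, on both strands, there was no match to 8 other motifs, given with the share of all windows that hold each. They were the CCAAT box (CCAAT, 37.4%), the GC box (GGGCGG, 35.7%), the core of aryl hydrocarbon receptor sites (GCGTG, 32.4%) and the C/EBP core (TTNNGNAA, 40.7%). The others were the glucocorticoid receptor core (AGAACA, 19.0%), the AP-1 core (TGANTCA, 7.81%), the TCF core (ATCAAAG, 3.73%) and the CRE core (TGACGTC, 3.21%). These are descriptions of letters in 1 window.

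Inmt was lower in every doxycycline-treated library than in any untreated library, in both lines. In APC-deleted cells the counts of replicates 1, 2 and 3 were 588, 510 and 679 untreated, 148, 170 and 145 at 24 h, and 211, 183 and 189 at 48 h. Scaled for depth with TMM factors these were 6.34, 5.29 and 7.53 CPM untreated, 1.48, 1.52 and 1.50 CPM at 24 h, and 2.42, 2.37 and 2.03 CPM at 48 h. The 3 APC-deleted groups did not overlap, and the 24 h libraries were the lowest of all 18.

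In APC-intact cells the counts were 845, 864 and 695 untreated, 217, 266 and 240 at 24 h, and 254, 247 and 242 at 48 h. These were 9.23, 9.23 and 7.18 CPM untreated, 2.94, 3.27 and 2.33 CPM at 24 h, and 2.87, 2.57 and 2.57 CPM at 48 h. Both treated groups lay below the untreated one, and they overlapped each other. All but the untreated pair of groups rested on 145 to 266 counts a library, so counting error alone can make up much of their spread, except in APC-intact cells at 24 h. The libraries of that group, from 2.33 to 3.27 CPM, spread by more than counting error alone would give. The APC-deleted libraries at 24 h differed by less than counting error alone would give, so their close values do not show greater precision.

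**Figure D1:**
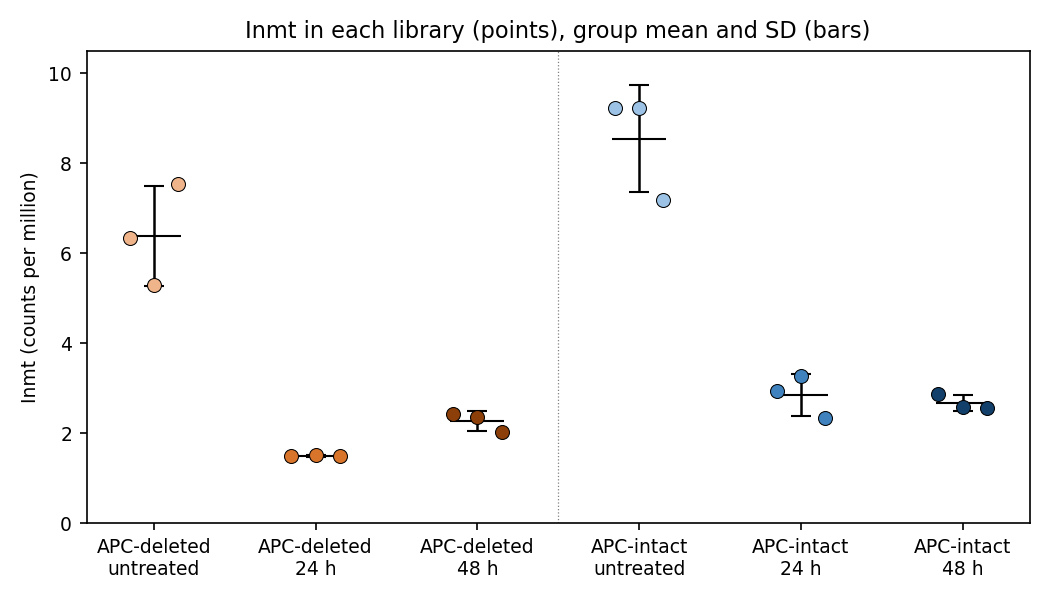
Inmt in CPM (y axis) in each library (points) of the 6 groups (x axis), with the mean and SD of 3 libraries (bars). The treated libraries sit between 1.48 and 3.27 CPM, all below the untreated ones at 5.29 CPM and above.

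From the lowest group to the highest, Inmt averaged 1.50 ± 0.0205 CPM in APC-deleted cells at 24 h and 2.27 ± 0.212 CPM in APC-deleted cells at 48 h (SD, n = 3 each), with a gap of 0.504 CPM between the nearest libraries. APC-intact cells at 48 h followed at 2.67 ± 0.169 CPM, after a gap of 0.155 CPM. APC-intact cells at 24 h had 2.85 ± 0.473 CPM and overlapped the group before. Untreated APC-deleted cells stood at 6.39 ± 1.12 CPM, after a gap of 2.03 CPM, and untreated APC-intact cells at 8.55 ± 1.18 CPM, and these untreated groups overlapped. By group means APC-deleted cells were thus lower at each time. The untreated libraries overlapped, and the 48 h gap of 0.155 CPM was smaller than the SD of either group. At 24 h the lines belong to different runs, so line and run cannot be told apart there.

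Treated APC-deleted cells kept 23.5% of the untreated mean at 24 h and 35.6% at 48 h, and treated APC-intact cells kept 33.3% and 31.2%. As log2 differences from untreated cells (± SE, n = 3 each) these were −2.09 ± 0.146 at 24 h and −1.49 ± 0.142 at 48 h in APC-deleted cells. In APC-intact cells they were −1.59 ± 0.140 at 24 h, where both groups belong to run 1, and −1.68 ± 0.140 at 48 h. Both times share the untreated libraries of their line. Within run 2, APC-deleted cells were higher at 48 h than at 24 h by 0.59 ± 0.149, and APC-deleted cells lay −0.23 ± 0.145 from APC-intact cells at 48 h. Between the untreated lines the difference was −0.42 ± 0.134. The difference of the 48 h differences between lines was 0.19 ± 0.197, about as large as its SE. The run cancels in it only if it acts alike in both lines, which cannot be checked here. Single untreated libraries moved that value by over 1.5 times. It was 0.06 without APC-deleted untreated replicate 2 and 0.32 without replicate 3, and 0.12 without APC-intact untreated replicate 1 and 0.31 without replicate 3. The difference between the lines at 48 h was −0.15 without APC-deleted 48 h replicate 3.

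Ranked from the lowest log2 difference among all 15006 tested genes, Inmt stood at place 32 in APC-deleted cells at 24 h and at place 91 there at 48 h. For the APC-intact line its places were 39 and 49. These low places belong to the values the gene was chosen on. Between the lines its place was 1820 in untreated cells and 3440 at 48 h, and for the difference of the 48 h differences it was 12630.

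Per length, Inmt was a gene of middling to low level. The deposited length was 1597 exon bases, whereas the longest coding transcript has 1077, so the level depends on the length used. The deposited RPKM averaged 3.06 ± 0.533 in untreated APC-deleted cells, 0.711 ± 0.0113 at 24 h and 1.06 ± 0.102 after 48 h. The average in APC-intact cells was 4.06 ± 0.560 untreated, 1.36 ± 0.228 at 24 h and 1.26 ± 0.0779 at 48 h. Inmt exceeded 43.7% of tested genes in untreated APC-deleted cells, and 28.0% and 31.2% after 24 and 48 h. In APC-intact cells it exceeded 48.7% untreated, and 33.4% and 32.7% after 24 and 48 h.

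The genes around Inmt on chromosome 6 were described next, taking the 10 annotated protein-coding genes on each side. Of these 20, 12 had enough counts to be tested. In each of the 4 comparisons of treated with untreated cells 2 of the 12 passed the test, all of them lower. The share of all tested genes that passed was 5.85% in APC-deleted cells at 24 h, 11.0% there at 48 h, 5.64% in APC-intact cells at 24 h and 11.3% there at 48 h. Aqp1 was 1 of the 2 in every case, with Fam188b at 24 h in both lines and Nod1 at 48 h in both lines. Aqp1 was known to fall from earlier results of these data.

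Aqp1 encodes aquaporin 1, a plasma membrane water channel. It lies 161 kb from Inmt, from 55336432 to 55348555 on the plus strand. In APC-deleted cells it had 37.3, 39.1 and 36.3 CPM untreated, 20.7, 21.3 and 23.8 CPM at 24 h, and 29.4, 29.9 and 29.0 CPM at 48 h. The APC-intact libraries had 48.6, 49.5 and 47.9 CPM untreated, 27.8, 25.7 and 28.4 CPM at 24 h, and 33.7, 34.6 and 32.2 CPM at 48 h. The 3 times did not overlap within either line, with untreated libraries highest and 24 h libraries lowest.

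Aqp1 fell at 24 h by −0.78 ± 0.0569 in APC-deleted cells (log2, adjusted p = 6.74e-08, edgeR) and by −0.83 ± 0.0567 in APC-intact cells, within run 1 (adjusted p = 4.71e-08, edgeR). At 48 h it fell by −0.35 ± 0.0566 in APC-deleted cells (adjusted p = 0.000466, edgeR) and by −0.54 ± 0.0562 in APC-intact cells (adjusted p = 2.21e-06, edgeR). Inmt's own falls were larger in all 4 comparisons. In APC-deleted cells Aqp1, like Inmt, was higher at 48 h than at 24 h, by 0.43 ± 0.0570 (adjusted p = 0.000297, edgeR), in a comparison where 0.520% of all tested genes passed. That call was lost when only the 2 groups compared were fitted (adjusted p = 0.0936, edgeR; from 4.64e-10 to 0.0936 over 12 alternatives).

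Fam188b, named Mindy4 in GENCODE, encodes a deubiquitinase-family protein and is the nearest annotated protein-coding gene on the side of Inmt's start, 28.3 kb away on the plus strand. In APC-deleted cells it had 7.34, 6.88 and 6.43 CPM untreated, 4.76, 5.03 and 4.91 CPM at 24 h, and 6.19, 6.28 and 5.86 CPM at 48 h. In APC-intact cells it had 5.92, 6.12 and 5.75 CPM untreated, 4.52, 4.19 and 4.63 CPM at 24 h, and 5.44, 5.87 and 5.32 CPM at 48 h. The 24 h libraries were below all others of their line, and at 48 h the APC-intact groups overlapped.

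At 24 h Fam188b fell by −0.49 ± 0.0771 in APC-deleted cells (adjusted p = 0.000582, edgeR) and by −0.41 ± 0.0783 in APC-intact cells (adjusted p = 0.00286, edgeR). The APC-intact call was lost when only the 2 groups compared were fitted (adjusted p = 0.0630, edgeR; from 0.000121 to 0.0630 over 12 alternatives). At 48 h its differences, −0.17 in the APC-deleted line and −0.10 in the APC-intact line, did not pass the test. As percentages of the untreated mean of the same line, Inmt, Fam188b and Aqp1 stood at 23.5%, 71.2% and 58.3% in APC-deleted cells at 24 h, and at 33.3%, 75.0% and 56.1% in APC-intact cells. At 48 h the 3 genes stood at 35.6%, 88.8% and 78.4% in APC-deleted cells and at 31.2%, 93.5% and 68.9% in APC-intact cells.

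**Figure D2:**
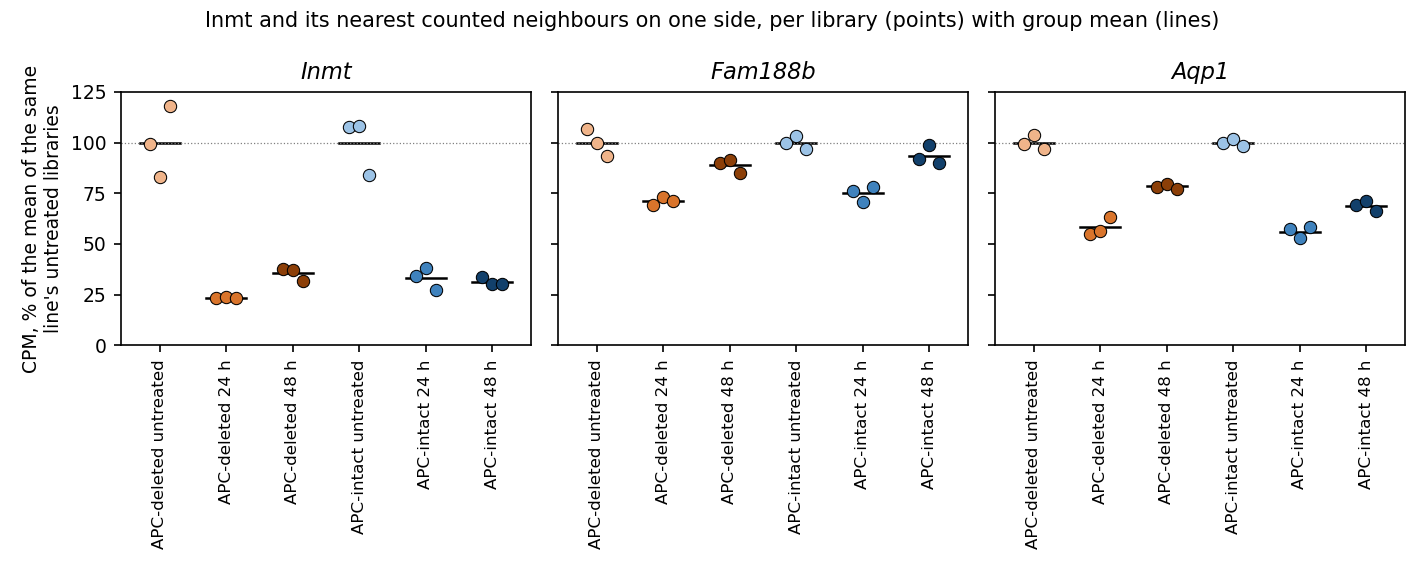
Inmt, Fam188b and Aqp1 in each library (points), as CPM in percent of the mean of the same line's untreated libraries (y axis), with group means (lines). Within each line Fam188b and Aqp1 are lowest at 24 h, as Inmt is in APC-deleted cells, and Inmt stays near 31.2% at 48 h in APC-intact cells while Fam188b and Aqp1 stand at 93.5% and 68.9%.

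The nearest gene on the other side, Crhr2, a corticotropin-releasing hormone receptor, had 0 counts in all 18 libraries. Gars, the glycyl-tRNA synthetase that follows it at 91.1 kb, did not pass the test in any of the 8 comparisons. Nod1, an intracellular sensor of bacterial peptidoglycan at 198 kb, fell at 48 h by −0.28 ± 0.0833 in APC-deleted cells (adjusted p = 0.0342, edgeR) and by −0.41 ± 0.0835 in APC-intact cells (adjusted p = 0.00312, edgeR). The APC-deleted call was lost in 6 of 12 alternatives, 4 of which each left out 1 library (APC-deleted 48 h replicates 1 and 3, untreated replicates 2 and 3).

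Between the lines 5 of the 12 neighbours passed the test in untreated cells, where 27.3% of all tested genes did, and 4 of 12 at 48 h, where 34.7% did. Aqp1 was lower in APC-deleted cells at both times (−0.37 untreated and −0.19 at 48 h), in the direction of Inmt. Its 48 h call was lost without APC-intact 48 h replicate 2 (adjusted p = 0.0697, edgeR; from 0.00940 to 0.0697 over 12 alternatives). Scrn1 and Ggct were also lower in APC-deleted cells at both times, and Plekha8, which overlaps Fkbp14, was higher at both. The 48 h call of Plekha8 was lost in 2 of 12 alternatives, with only the groups compared and without APC-deleted 48 h replicate 1 (adjusted p = 0.0110, edgeR; from 0.00297 to 0.0662 over 12 alternatives). Fam188b was higher in untreated APC-deleted cells (0.22, adjusted p = 0.0423, edgeR), a call lost in 7 of 12 alternatives. For the difference of the 48 h differences 0 of 12 neighbours passed in edgeR and 0 in DESeq2, against 0.0267% of all tested genes in edgeR, and 1 had an unadjusted p under 0.05. Fkbp14, 2410066E13Rik, Znrf2, Gars, Lsm5 and Avl9 passed in no comparison.

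**Figure D3:**
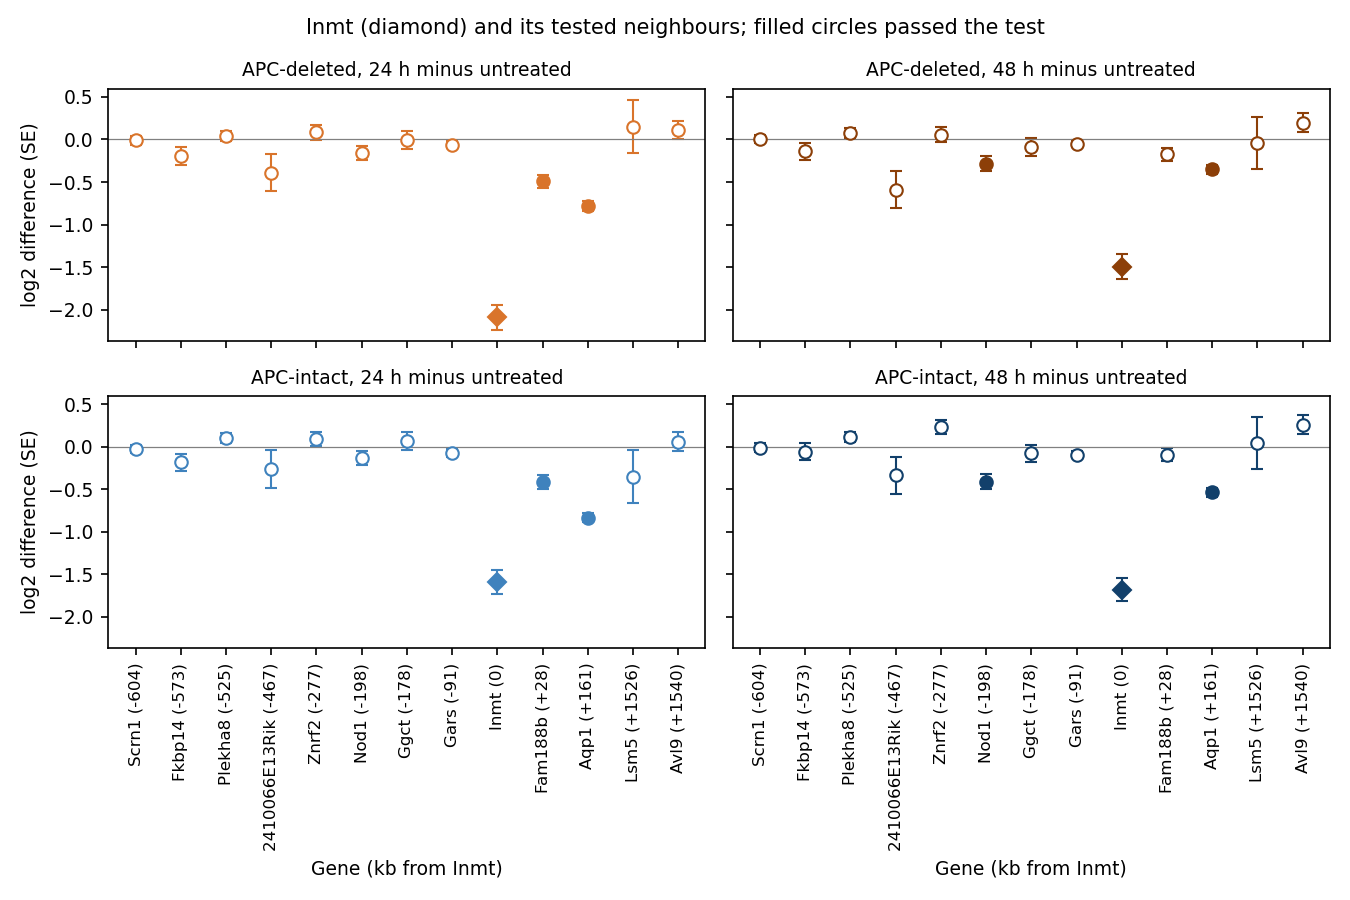
The log2 difference of treated from untreated cells with its SE (y axis) for Inmt (diamond, not tested) and its 12 tested neighbours in chromosome order, labelled with the distance from Inmt in kb (x axis), 1 panel for each line and time. Filled circles passed the test, and Inmt and Aqp1 are low in all 4 panels.

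Enzymes of the same kind were compared next, as 19 small-molecule methyltransferases of which 14 were tested. At 24 h 0 of 14 passed in either line (edgeR). An unadjusted p under 0.05 was found for 1 gene in the APC-deleted line and 2 in the APC-intact line, and DESeq2 called 1 and 0. At 48 h 2 of 14 (14.3%) passed in each line, near the share of all tested genes, 11.0% in the APC-deleted line and 11.3% in the APC-intact line. The median log2 difference of the 14 in APC-deleted cells was −0.02 at 24 h and −0.11 at 48 h, and in APC-intact cells −0.06 and −0.07, against medians of all tested genes between −0.00427 and 0.000496.

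Nnmt, the nicotinamide methyltransferase, had 35.2, 32.9 and 33.3 CPM in untreated APC-deleted cells, 29.8, 30.2 and 27.4 CPM at 24 h, and 27.8, 27.3 and 27.5 CPM at 48 h. The APC-intact libraries had 41.2, 41.5 and 41.2 CPM untreated, 36.3, 44.3 and 37.7 CPM at 24 h, and 35.1, 38.5 and 37.7 CPM at 48 h. It fell at 48 h in APC-deleted cells by −0.30 ± 0.0645 (adjusted p = 0.00548, edgeR) and passed in no other comparison of treated with untreated cells. The largest of its differences was thus small beside those of Inmt, although its level per length was higher, with a mean RPKM of 13.1 to 19.9 over the 6 groups. Nnmt was lower in APC-deleted than APC-intact cells, by −0.29 ± 0.0639 untreated (adjusted p = 0.00195, edgeR) and −0.43 ± 0.0645 at 48 h (adjusted p = 3.18e-05, edgeR).

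Mettl7b, a thiol methyltransferase, fell at 48 h by −0.90 ± 0.219 in APC-deleted cells (adjusted p = 0.0120, edgeR) and by −0.86 ± 0.198 in APC-intact cells (adjusted p = 0.00789, edgeR). Over 12 alternatives the adjusted p ran from 0.00209 to 0.0995 in APC-deleted cells, where the call was lost without 48 h replicate 3, without untreated replicate 1 and with only the groups compared. It ran from 0.000261 to 0.0614 in APC-intact cells, where the call was lost without 48 h replicate 1. Mettl7b overlaps Itga7. Its paralog Mettl7a1 passed only between the lines, where it was higher in APC-deleted cells by 0.45 untreated and 0.57 at 48 h. As3mt, the arsenite methyltransferase, was higher in APC-deleted cells by 1.16 ± 0.0668 untreated (adjusted p = 5.55e-11, edgeR) and 1.14 at 48 h. Hnmt, which inactivates histamine, had 127 counts in all libraries together and was higher in APC-deleted cells by 3.56 ± 0.758 untreated (adjusted p = 0.00141, edgeR). Tpmt, the thiopurine methyltransferase, was lower in APC-deleted cells at 48 h by −0.29 (adjusted p = 0.0433, edgeR), a call lost in 7 of 12 alternatives. Pnmt, which makes adrenaline from noradrenaline, had 1 count in all and was not tested.

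**Figure D4:**
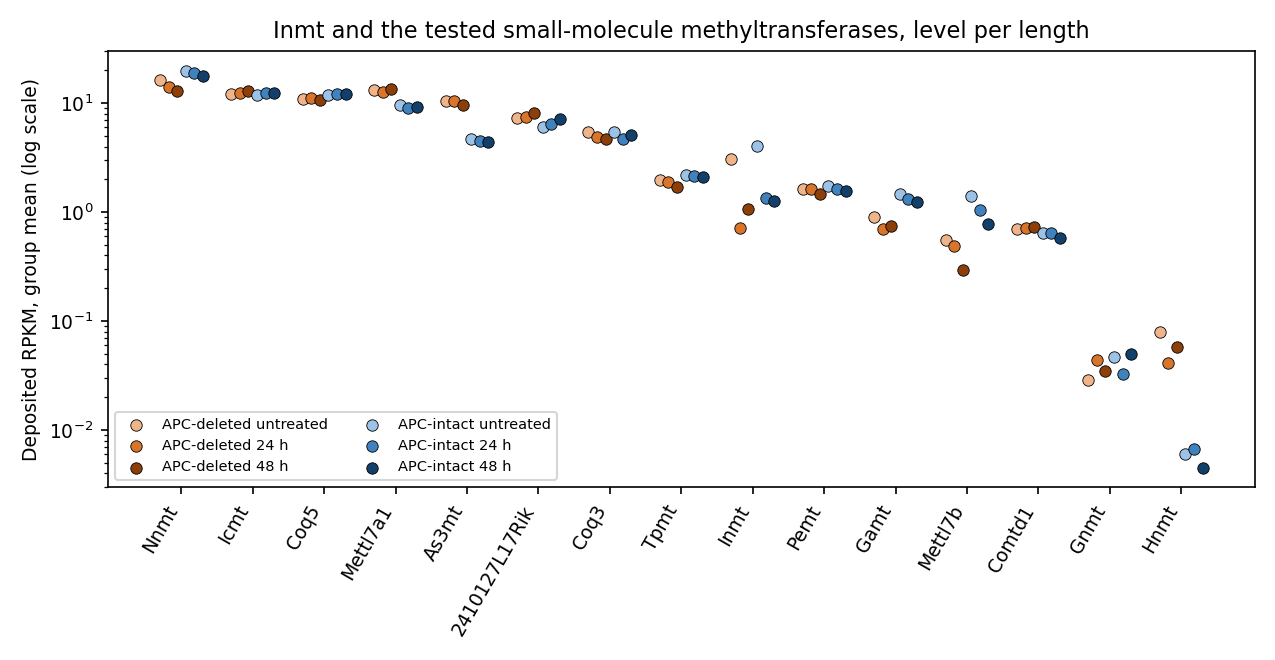
Group means of the deposited RPKM (y axis, log scale) for Inmt and the 14 tested small-molecule methyltransferases in order of their overall mean (x axis), with 1 point for each of the 6 groups. Inmt ranges from 0.711 to 4.06 RPKM across the groups while Nnmt ranges from 13.1 to 19.9.

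The enzymes that make and renew SAM were 24 genes, 22 of them tested. In treated against untreated cells 3 of 22 (13.6%) passed at 24 h and 4 (18.2%) at 48 h in APC-deleted cells, where 5.85% and 11.0% of all tested genes did. For APC-intact cells 2 (9.09%) passed at each time, beside 5.64% and 11.3% of all tested genes, so the 48 h share was below that of all genes. Mtap, which recovers methionine from methylthioadenosine, was the only member to fall in all 4, by −0.29 at 24 h and −0.28 at 48 h in APC-deleted cells and by −0.27 and −0.21 in APC-intact cells (adjusted p from 0.00226 to 0.0159, edgeR). Its 48 h calls were lost without APC-intact 48 h replicate 1 or untreated replicate 2 (adjusted p up to 0.0965, edgeR) and with only the APC-deleted groups compared. Ahcy, which clears the S-adenosylhomocysteine that methyltransferases release, fell in APC-intact cells at 24 h by −0.27 ± 0.0541 (adjusted p = 0.00431, edgeR), a call lost with only the groups compared. Sms, spermine synthase, rose in APC-deleted cells at 48 h by 0.30 ± 0.0535 (adjusted p = 0.00105, edgeR). Mat2a, which makes SAM in most tissues outside the liver, passed only between the lines at 48 h, lower in APC-deleted cells by −0.57 ± 0.114 (adjusted p = 0.000768, edgeR). Mtrr, which reactivates methionine synthase, rose in APC-deleted cells at 24 h by 0.17 (adjusted p = 0.0409, edgeR; lost in 6 of 12 alternatives). Shmt2, a mitochondrial enzyme that supplies one-carbon units from serine, fell at 48 h by −0.23 in the APC-deleted line and −0.25 in the APC-intact line, calls each lost in 5 of 12 alternatives.

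For tryptophan and indolamine metabolism 16 of 26 genes were tested. Ddc, the decarboxylase that makes tryptamine, was scarcely counted, with 83 counts in all 18 libraries together, and Tph2 had 67. Maoa, the oxidase that degrades tryptamine, was well counted, fell in APC-intact cells at 24 h by −0.22 (adjusted p = 0.0460, edgeR; lost in 6 of 12 alternatives), and was higher in APC-deleted cells by 0.39 ± 0.0632 untreated (adjusted p = 9.04e-05, edgeR) and 0.54 at 48 h. Maob passed in no comparison. In treated against untreated cells 1 of 16 (6.25%) passed at 24 h and 3 (18.8%) at 48 h in APC-deleted cells, beside 5.85% and 11.0% of all tested genes. For APC-intact cells 4 (25.0%) passed at 24 h and 2 (12.5%) at 48 h, beside 5.64% and 11.3%. The share in APC-deleted cells at 24 h and that in APC-intact cells at 48 h were thus near those of all genes. Wars, the tryptophanyl-tRNA synthetase, rose at 24 h by 0.25 in APC-deleted cells (adjusted p = 0.00833, edgeR) and by 0.21 in APC-intact cells (adjusted p = 0.0225, edgeR). Its call in APC-deleted cells was lost without 24 h replicate 2 or untreated replicate 3 (adjusted p up to 0.0717, edgeR), and that in APC-intact cells in 5 of 12 alternatives. Cat, catalase, fell at 48 h in APC-deleted cells by −0.15 (adjusted p = 0.0250, edgeR; lost in 4 of 12 alternatives) and in APC-intact cells by −0.25 at 24 h and −0.22 at 48 h (adjusted p = 0.00101 and 0.00221, edgeR). The 24 h call was lost with only the groups compared (adjusted p = 0.0600, edgeR; from 7.79e-08 to 0.0600 over 12 alternatives).

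Selenium handling, listed because the mouse enzyme methylates dimethyl selenide, had 27 of 32 genes tested. At 24 h 3 of 27 (11.1%) passed in each line, where 5.85% of all tested genes did in the APC-deleted line and 5.64% in the APC-intact line, and at 48 h 6 (22.2%) in each, where 11.0% and 11.3% did. All of these calls but 1 were lower. Most calls over all genes were lower too, 566 of 878 at 24 h and 974 of 1653 at 48 h in APC-deleted cells, and 638 of 846 and 1131 of 1703 in APC-intact cells. Sepp1, the secreted selenium carrier selenoprotein P, fell in all 4 comparisons. It had 3.17, 2.28 and 3.66 CPM in untreated APC-deleted cells, 1.66, 1.85 and 1.87 CPM at 24 h, and 1.63, 1.90 and 1.56 CPM at 48 h. In APC-intact cells it had 9.17, 9.53 and 8.02 CPM untreated, 6.53, 6.36 and 6.60 CPM at 24 h, and 5.93, 5.64 and 5.23 CPM at 48 h. Its treated libraries lay below the untreated ones in both lines.

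The falls of Sepp1 were −0.76 ± 0.135 at 24 h and −0.84 ± 0.138 at 48 h in APC-deleted cells (adjusted p = 0.00182 and 0.000523, edgeR), and −0.45 ± 0.124 and −0.67 ± 0.124 in APC-intact cells (adjusted p = 0.0349 and 0.00145, edgeR). The 24 h call in APC-intact cells was lost in 6 of 12 alternatives, among them without replicate 1, 2 or 3 at 24 h, and the 48 h call in APC-deleted cells with only the groups compared (adjusted p = 0.0537, edgeR; from 4.37e-07 to 0.0537 over 12 alternatives). Dio2, the deiodinase that activates thyroid hormone, fell in all 4 as well, by −0.42 and −0.55 in APC-deleted cells and by −0.47 and −0.34 in APC-intact cells at 24 and 48 h (adjusted p from 6.73e-05 to 0.00483, edgeR). A predicted gene overlaps Dio2 on the opposite strand at a mean of 2.95 CPM. Sephs2, which makes selenophosphate, passed in APC-deleted cells and fell there, by −0.21 at 24 h and −0.26 at 48 h (adjusted p = 0.0261 and 0.00353, edgeR), and the 24 h call was lost in 5 of 12 alternatives. The difference between the lines in its 48 h response did not pass the test (adjusted p = 0.674, edgeR).

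Of 11 receptors of dimethyltryptamine 3 were tested, and 0 passed in any comparison of treated with untreated cells in edgeR or DESeq2. At an unadjusted p under 0.05 there was 1, in APC-intact cells at 48 h. Htr1b, a serotonin receptor, had 0 counts in the 9 APC-deleted libraries and 27 to 56 in the 9 APC-intact ones. Taar1 had 0 counts.

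The aryl hydrocarbon receptor binds kynurenine and other tryptophan products, and 4 of the 10 genes in its list were tested. In treated against untreated cells 3 of 4 passed at each time in APC-deleted cells and 2 of 4 at each time in APC-intact cells, beside the shares of all tested genes given above (5.64 to 11.3%). These were Ahr, Arnt and Nqo1 in APC-deleted cells and Arnt and Nqo1 in APC-intact cells. Tiparp, the remaining tested gene of the list, passed in no comparison. Ahr rose in APC-deleted cells by 0.48 ± 0.0695 at 24 h and 0.33 ± 0.0696 at 48 h (adjusted p = 0.000302 and 0.00408, edgeR). Arnt, its partner, rose in all 4 by 0.24 to 0.37 (adjusted p from 0.000369 to 0.0183, edgeR; the 24 h call in APC-intact cells was lost in 3 of 12 alternatives), whereas Nqo1, a target enzyme that the Nrf2 factor also controls, fell in all 4 by −0.58 to −0.31 (adjusted p from 1.43e-06 to 0.000518, edgeR). The classic targets Cyp1a1, Cyp1a2 and Cyp1b1 had 75, 1 and 7 counts in all. Across the 6 lists 0 genes passed between 48 and 24 h in APC-deleted cells, or for the difference of the 48 h differences (edgeR), where 0.520% and 0.0267% of all tested genes did, so 0 calls says nothing particular of the lists. In these 2 comparisons each list held 0 to 3 genes at an unadjusted p under 0.05, and DESeq2 called 1 gene of the methionine and SAM list between the times and none elsewhere.

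The genes whose pattern was most like that of Inmt were taken from 10555 genes with a mean of at least 1 CPM, by Pearson's r of log2 CPM over the 18 libraries. The points share libraries, groups and depth scaling, and the median r of all genes was 0.0217 with a 99th percentile of 0.834. The 10 highest were Col1a2 at 0.957, Chid1 at 0.956, Ccdc80 at 0.937, Plac8 at 0.930, Tmem86a at 0.928, Mcm7 at 0.927, Lonp2 at 0.926, Slc35b2 at 0.925, Herpud1 at 0.924 and Mpp1 at 0.922. They include a chain of type I collagen (Col1a2), a secreted matrix protein (Ccdc80), a lysoplasmalogenase (Tmem86a), a subunit of the replication helicase (Mcm7) and a component of protein disposal at the endoplasmic reticulum (Herpud1). Chid1, Mcm7 and Mpp1 each overlap another well-counted gene, so their counts are uncertain. Aqp1 came 24th with r = 0.906.

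Likeness here is of shape and not of size. Col1a2 averaged 928 ± 34.2 CPM in untreated APC-deleted cells, 751 at 24 h and 785 at 48 h, and 944 CPM in untreated APC-intact cells, 800 at 24 h and 799 at 48 h. Ccdc80 averaged 10.7, 6.92 and 6.97 CPM at the same times in APC-deleted cells and 12.5, 8.27 and 8.62 CPM in APC-intact cells. Both kept well over the share of the untreated level that Inmt kept. Col1a2 also belongs to the fibroblast marker list, whose summed level was lower in treated than in untreated cells of both lines. That sum was 4219 to 4675 CPM untreated, 3497 to 3605 at 24 h and 3434 to 3493 at 48 h in APC-deleted cells. In APC-intact cells it was 3529 to 3724, 2852 to 2959 and 2730 to 2765 CPM. Unlike Inmt, the sum was higher in APC-deleted than in APC-intact cells at each time and did not rise between 24 and 48 h in APC-deleted cells. At 24 h line and run cannot be told apart in this sum either. The summed level of the haematopoietic markers was 18.5 to 23.4 CPM untreated, 15.4 to 16.5 at 24 h and 13.3 to 19.0 at 48 h in APC-deleted cells, and 15.5 to 17.6, 11.9 to 12.3 and 10.54 to 11.54 CPM in APC-intact cells. Treated libraries thus lay below untreated ones except at 48 h in APC-deleted cells, where they overlapped. That of the colon epithelium markers was 4.90 to 5.42, 3.60 to 3.93 and 3.49 to 4.27 CPM in APC-deleted cells, without overlap between treated and untreated libraries. In APC-intact cells it was 2.63 to 3.66, 1.86 to 2.75 and 2.56 to 3.23 CPM, with overlap. The endothelial sum was 3.05 to 4.13, 4.09 to 4.21 and 3.50 to 3.61 CPM in APC-deleted cells. For APC-intact cells it was 5.68 to 6.33, 5.37 to 6.36 and 5.40 to 5.82 CPM. Its treated and untreated libraries overlapped in both lines, so not every marker sum was lower in treated cells. The part of these sums in the values of Inmt was not tested, and fewer cells of a kind and less RNA per cell cannot be told apart in bulk RNA.

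The 5 lowest r were those of Gpr56 at −0.926, Lhfpl2 at −0.911, Naaa at −0.891, Slc29a3 at −0.890 and Tgfa at −0.890. Gpr56, an adhesion receptor, had 14.3, 15.6 and 15.5 CPM at 24 h in APC-deleted cells, against 3.01, 3.20 and 4.01 CPM untreated, and 7.73, 7.70 and 7.85 CPM at 24 h in APC-intact cells, against 2.72, 2.90 and 2.52 CPM untreated. Naaa is a lysosomal amidase of fatty acid ethanolamides, Slc29a3 a lysosomal nucleoside transporter and Tgfa a ligand of the epidermal growth factor receptor. All 5 were higher in treated than in untreated cells of both lines by their group means.

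**Figure D5:**
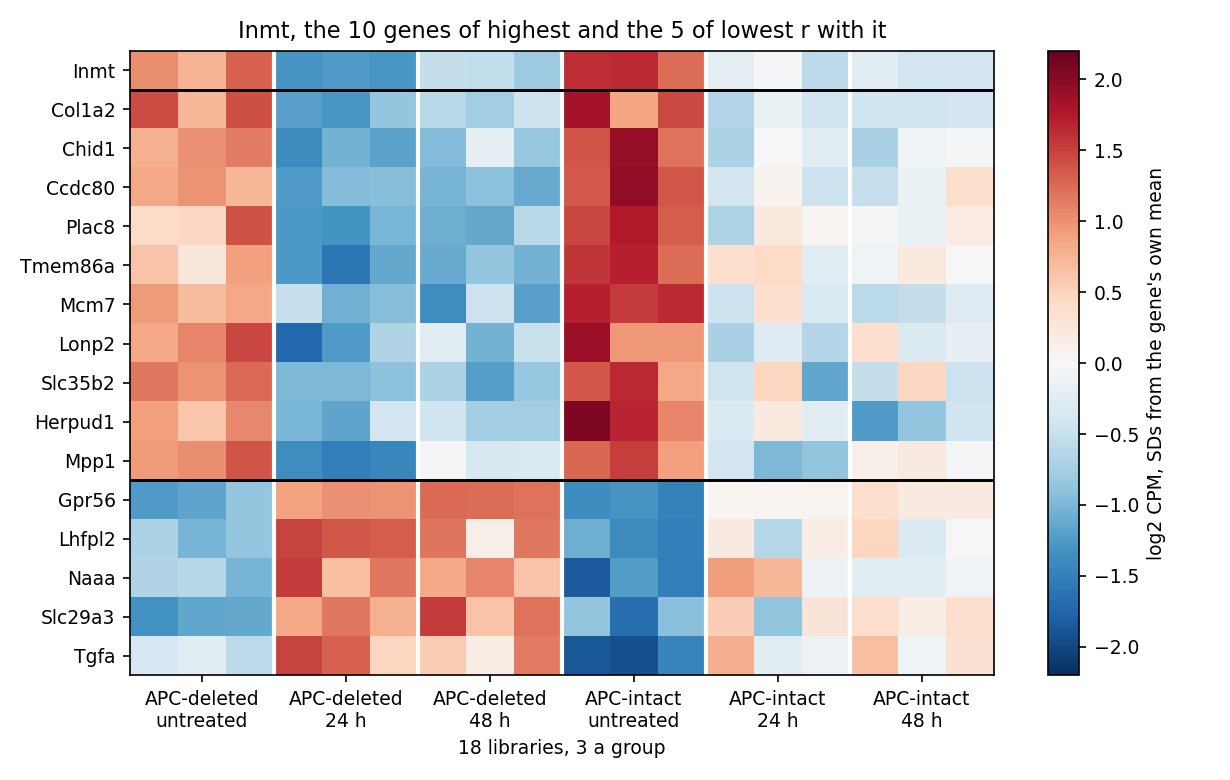
The log2 CPM of Inmt, the 10 genes of highest and the 5 of lowest r with it (rows), in SDs from each gene's own mean over the 18 libraries (columns, 3 a group). Untreated libraries are red in the upper 11 rows and blue in the lower 5, and the scale hides that the genes differ in the size of change.

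When group means were subtracted, so that only the spread of replicates was left, other genes were nearest to Inmt. Olfml2b came first at 0.891, followed by Apod at 0.880, Hcfc1r1 at 0.873, Paqr7 at 0.839 and Ift43 at 0.828, against a 99th percentile of 0.675 over all genes. Apod, a lipid-binding lipocalin, and Hcfc1r1, which overlaps Thoc6, also followed Inmt across groups, with r of 0.899 and 0.898 over the 18 libraries. Olfml2b, an extracellular matrix protein, had r of 0.984 and 0.989 within the 9 libraries of the APC-deleted and APC-intact line but 0.376 over all 18, since its level was higher in the APC-deleted line, where that of Inmt was lower. Aqp1 did not follow Inmt at this level, with r of −0.330 once group means were subtracted.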

How the data were processed

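The authors deposited, for each of 18 libraries, whole-number counts and RPKM per gene; STAR, HTSeq and mm10 were used per the submitters' processing notes, with versions, annotation release and use of strand not given in the sources used here. Between 22.9 and 25.5% of each total stood in entries without a gene, of which reads in no annotated gene made 4.70 to 7.01% (group means higher in treated than untreated cells of each line), and these were left out of library sizes. The test was that of edgeR 4.0.16 under R 4.3.3 (factors by TMM, filterByExpr, 1 coefficient per group, robust glmQLFit, glmQLFTest), with Benjamini-Hochberg adjustment over 15006 genes and a threshold of 0.05. The common coefficient of variation was 8.33%, and every pair of replicates differed by more than sampling noise. RPKM were only used as levels. Likeness used log2 CPM with a prior count of 2. Alternatives were DESeq2 1.42.0, DESeq-style size factors in edgeR, no filter, only the groups compared, a replicate block, each library left out and, added after seeing the data, both libraries that stood apart left out. Tables used Python 3.11.15, numpy 2.4.6 and pandas 2.3.3, and the test and the likeness step were tested on simulated data.

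Inmt, the lists and the neighbours were chosen with earlier results of these data known. The rule for named genes took the 10 highest and 5 lowest r with Inmt, the 5 highest with group means subtracted, all tested neighbours, the members with the smallest adjusted p (at most 6 a list), and enzymes of the same substrate or product; part of those are given in the text. Of the gene identifiers 96.0% were in GENCODE M21, 99.7% of them at the same place. Genes that overlap another tested gene are uncertain, in the text Chid1, Mcm7, Mpp1, Herpud1, Lonp2, Hcfc1r1, Plekha8, Fkbp14, Mettl7b, Tpmt, Dio2, Tiparp and Wars. Some list members are not reported here, though the list counts include them. Of other markers, 1 of 5 endothelial (Cdh5), 1 of 7 haematopoietic (Cd68) and 0 of 4 hepatocyte markers reached 1 CPM.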

Additional observations from a re-analysis of the deposited data

How the results depend on the processing

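Inmt kept its direction in all 8 differences under every alternative run, and moved by less than 0.181, the pooled SD of its log2 CPM within groups. That yardstick is lenient, since leaving 1 of 3 libraries out moves a group mean by only part of the group's SD. In APC-intact cells at 24 h the difference moved from −1.59 to −1.44 without 24 h replicate 3, beside an SE of 0.140. With 1 library left out its log2 difference ran from −2.21 to −1.95 (24 h) and from −1.62 to −1.36 (48 h) in APC-deleted cells, from −1.70 to −1.44 and from −1.80 to −1.62 in APC-intact cells, from 0.54 to 0.67 between 48 and 24 h, from −0.55 to −0.29 between untreated lines, from −0.28 to −0.15 between lines at 48 h and from 0.06 to 0.32 for the difference of differences. Counting 145 to 266 reads a treated library limits these values, and RPKM and counts come from the same reads.

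How many of all genes passed, the background for the neighbours and lists, depended more on the processing. With only the groups compared it was 2473 against 878 in APC-deleted cells at 24 h (48.6% against 35.5% higher) and 433 against 1653 at 48 h, 258 against 846 and 4367 against 1703 in APC-intact cells (at 48 h 46.7% against 33.6% higher), 22 against 78 between the times and 0 against 4 for the difference of differences. DESeq2 called 1388, 191 and 57 in APC-deleted cells at 24 h, between the times and for the difference of differences, and with no filter the last was 14. Without both libraries that stood apart the counts were 1564 and 3009 in APC-deleted cells at 24 and 48 h, 2984 in APC-intact cells at 48 h, 221 between the times and 2 for the difference of differences, and the receptor list had 4 calls against 2. With 1 library left out the counts ran from 428 to 533 and from 882 to 2816 in APC-deleted cells, from 364 to 1259 and from 822 to 1409 in APC-intact cells, from 47 to 193 between the times, from 3101 to 3579 and from 4231 to 5219 between the lines and from 0 to 3 for the difference of differences. The cause was not tested. Of the 10 genes most like Inmt, 4 were shared when ranked by Spearman's rho, and 6 to 10 with 1 library left out.

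The labels do not say that replicate numbers mark a shared batch, and only 4 of the 45 same-numbered pairs had a correlation over 0.1 (from −0.088 to 0.237, median 0.02), so the numbers were not taken to pair the samples. Of the 90 other-numbered pairs 2 were over 0.1 (from −0.154 to 0.103, median −0.0155). With a replicate block the Inmt differences were −2.09 and −1.50 in APC-deleted cells and −1.59 and −1.67 in APC-intact cells at 24 and 48 h, and 988, 1801, 965 and 2173 genes passed.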
